A study of Xenopus laevis with 30 samples.

Results

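The rows described here are 7 entries of Xenopus laevis genes that were chosen by their higher counts in explants given a morpholino against Sf3b4: phldb3.S, lmo7.L, cldn4.L, epcam.L, epcam.S, upk1b.S and vgll3.L. They belong to 6 genes and are 7 of the 49109 entries in each count table. Their 4 homeolog rows (phldb3.L, lmo7.S, cldn4.S and upk1b.L) were followed with them, as was a row named upk1b with no L or S ending. No S row of vgll3 was found in the tables. The letters L and S name the chromosome sets of this allotetraploid frog, which carries many genes as a pair of homeologs. Because the choice was made on the comparison of morphant with control explants, values in that comparison are given as a description and without a test. The selection gave no numeric threshold, so no rows stand just inside or outside it.

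The explants were animal caps, the pluripotent roof of the blastula. Every embryo had received mRNA for noggin, a BMP antagonist, and for the ligand wnt8, which turns this ectoderm toward neural crest. The control group, NW, received these mRNAs alone. The other group, NWS, also received the Sf3b4 antisense morpholino, whose target is a subunit of the SF3b splicing complex. Embryos were injected with these at the 2-cell stage, and caps cut at stage 8 to 9 were kept for 8 hours in culture and homogenised one by one. Ribosomal RNA was removed from some libraries (depleted) and not from others (undepleted), so there were 4 groups of 3 libraries. Depleted and undepleted libraries of the same treatment and number carry the same name. Agreement between the preparations is therefore not counted as independent replication. No group without the noggin and wnt8 mRNAs or with a control morpholino was analysed here. How far the morpholino lowered Sf3b4 protein is not given by RNA counts.

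Epithelial cells are joined near their apical face by tight junctions, which seal the space between cells, and below them by adherens junctions and desmosomes, which tie the cells' actin and keratin filaments together. Claudins are the membrane proteins that form the tight junction strands. In the frog embryo the animal cap is itself an epithelium over deeper cells, and cells that become neural crest later loosen such contacts and migrate. Levels from whole explants cannot tell more RNA per cell from a larger share of cells of a type.

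Depth differed widely between libraries. The depleted libraries held 351902 to 3570364 counts in all and the undepleted ones 3499960 to 4339788, but 5 entries, led by LOC108705792 and ccdc50.L, took most of them in every library except NW library 3 of the depleted preparation. Outside these, 112762 to 2803732 counts were left in the depleted and 87172 to 2042925 in the undepleted libraries, with the most in NW library 3 of each preparation. Levels are given as CPM, read counts scaled to the normalised library size within each preparation. A floor of 3 counts corresponds to 0.268 to 7.58 CPM (depleted) and 0.110 to 2.76 CPM (undepleted), which covers counting error only. The libraries numbered 2 were shallow in both groups, at 87172 to 203123 counts outside the dominant entries, and depleted NWS library 1 had 127172. Many values of the 7 rows there rest on few reads. Some do not, such as lmo7.L with 110 counts in depleted NWS library 2 and epcam.S with 90 in depleted NWS library 1. Libraries of the same number were treated as pairs where this is said. Of the crest markers checked, snai2.L and foxd3.L had counts in all 12 libraries, sox10.L and foxd3.S in 9, sox10.S in 8 and snai2.S in 7. The epidermal keratin row krt12.S also had counts in all 12, so crest and epidermal markers were both read in the explants.

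In the undepleted libraries the lowest NWS value lay above the highest NW value for all 7 rows. In the depleted libraries this held for 4 of the 7: phldb3.S, lmo7.L, cldn4.L and vgll3.L. Such a separation upward was seen in 4.25% of the 6284 tested entries undepleted and in 4.53% of the 6585 tested entries depleted, and nothing is read from the members' counts, since the rows were picked for it. All 7 rows passed the low-count filter in the undepleted and 6 in the depleted libraries, where upk1b.S did not pass. The fitted log2 fold changes ran from 1.48 to 4.72 (median 3.21) over the 7 rows undepleted and from 0.61 to 5.11 (median 3.18) over the 6 rows depleted. The medians over all entries tested were -0.04 and -0.03.

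**Figure D1:**
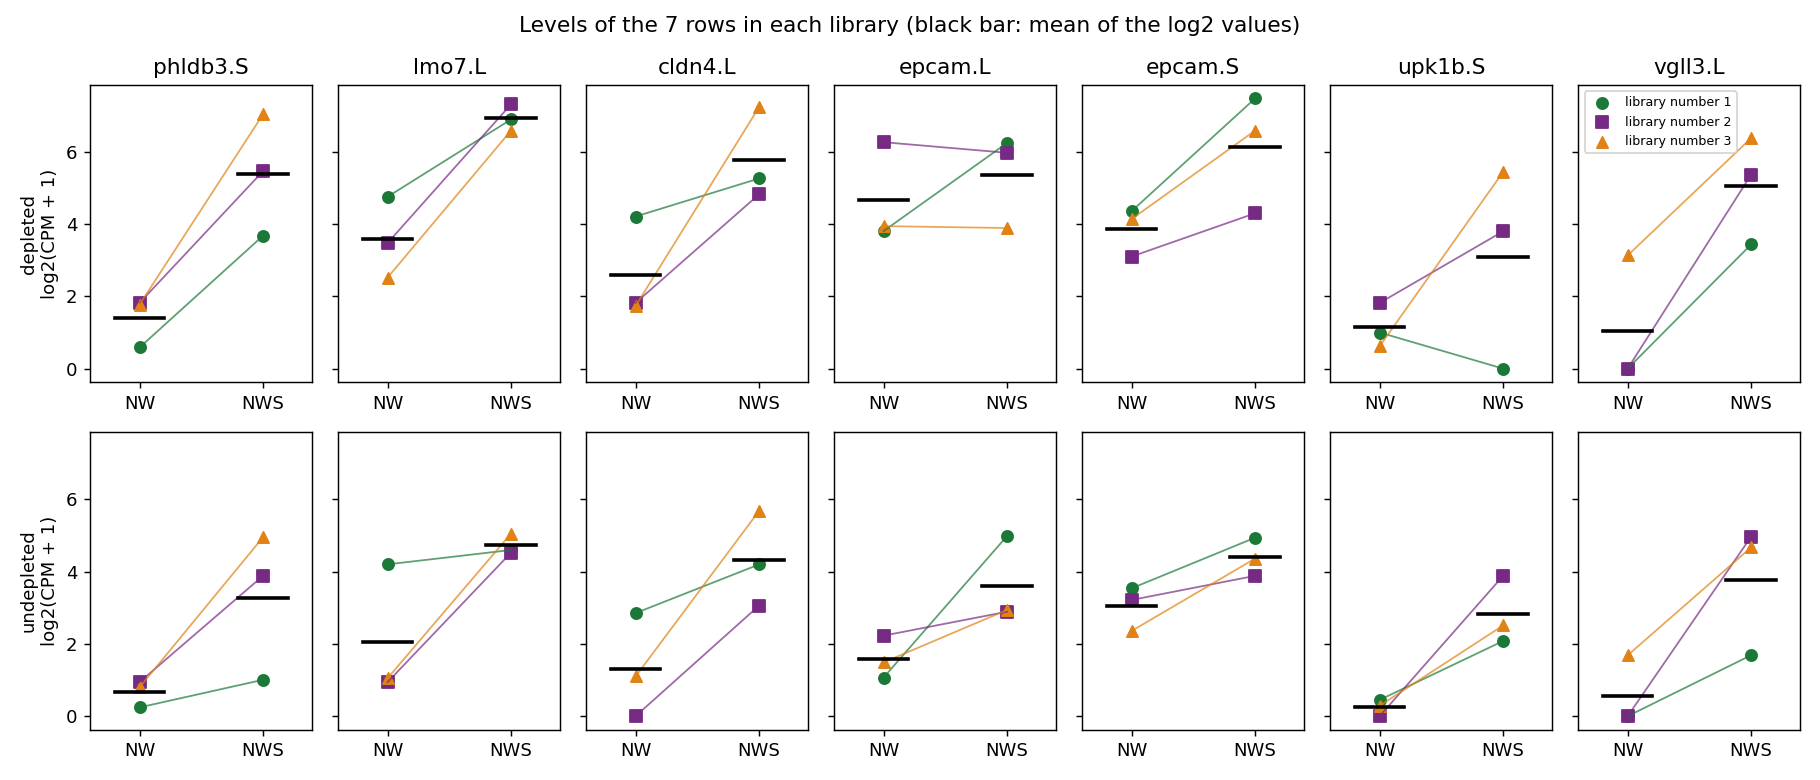
Level of each row in each library, as log2(CPM + 1), with the depleted libraries above and the undepleted libraries below; lines join NW and NWS libraries of the same number, and black bars are means of the log2 values. In all 7 undepleted panels the NWS values lie above the NW values, but for phldb3.S and vgll3.L the lowest NWS and highest NW values nearly coincide. epcam.L, epcam.S and upk1b.S overlap in the depleted panels.

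The rows phldb3.S and lmo7.L code for proteins tied to the cell cortex. Phldb3 belongs to a family of pleckstrin homology domain proteins whose better known relatives, Phldb1 and Phldb2, anchor microtubules at the basal cortex of mammalian cells. The depleted level of phldb3.S was 0.499, 2.53 and 2.41 CPM in NW libraries 1 to 3 and 11.8, 43.0 and 130 CPM in NWS libraries 1 to 3. The groups did not overlap, and NWS library 3 was the highest. Undepleted levels of phldb3.S were 0.183, 0.920 and 0.737 CPM in NW against 1.01, 13.7 and 29.9 CPM in NWS. There the lowest NWS library lay close to the highest NW library, and both values rest on few reads (5 counts in NWS library 1 and 1 count in NW library 2). The group means of phldb3.S were 1.81 ± 1.14 and 61.5 ± 61.2 CPM (SD, n = 3) depleted, with a fitted log2 fold change of 5.11 ± 1.08 (SE), and 0.613 ± 0.384 and 14.9 ± 14.5 CPM undepleted, with 4.67 ± 1.14. Without NWS library 3 the change of phldb3.S was 3.93 depleted and 3.55 undepleted. It was 5.79 without depleted NW library 3 and 5.26 without undepleted NWS library 1.

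Lmo7 is a protein with LIM and PDZ domains that binds the adherens junction through afadin in mammals and drives apical constriction in Xenopus ectoderm. The lmo7.L row stood at 26.0, 10.1 and 4.73 CPM in the depleted NW libraries and at 118, 158 and 94.9 CPM in the depleted NWS libraries. In the undepleted libraries lmo7.L was at 17.4, 0.920 and 1.07 CPM in NW against 23.2, 21.96 and 32.1 CPM in NWS. The NWS libraries lay close together in both preparations, whereas NW library 1 was well above the other NW libraries and, undepleted, near the NWS range. The fitted log2 fold change was 3.17 ± 0.78 (SE) depleted, from 13.6 ± 11.04 to 123 ± 31.8 CPM. In the undepleted libraries it was 1.93 ± 0.85, from 6.45 ± 9.45 to 25.7 ± 5.53 CPM (SD, n = 3). Pairing the libraries by number gave 3.11 ± 0.82 for the undepleted change, and leaving out NW library 1 gave 4.63 (4.23 depleted).

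The junction and adhesion rows were cldn4.L and the pair epcam.L and epcam.S. Claudin 4 is a tight junction claudin of many epithelia. The cldn4.L row was at 17.5, 2.53 and 2.32 CPM in depleted NW libraries and 37.3, 27.2 and 149 CPM in depleted NWS libraries. Undepleted, it was at 6.21, 0 and 1.14 CPM in NW against 17.3, 7.32 and 50.1 CPM in NWS. NWS library 3 was the highest of each preparation, and NW library 1 was again the highest control. The fitted log2 fold changes of cldn4.L were 3.19 ± 0.95 (from 7.44 ± 8.69 to 71.2 ± 67.7 CPM) and 3.21 ± 0.92 (from 2.45 ± 3.31 to 24.9 ± 22.4 CPM). They were 4.89 and 4.83 without NW library 1, and 2.04 and 2.29 without NWS library 3.

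EpCAM is a single-pass membrane protein of epithelia, which in Xenopus gastrulae is known to affect cadherin adhesion and tissue movements. Its rows differed from the others and from each other. The epcam.S row was at 19.5, 7.58 and 16.6 CPM in depleted NW libraries and 177, 18.6 and 94.9 CPM in depleted NWS libraries, so NWS library 2 lay below NW library 1. Undepleted, epcam.S was at 10.6, 8.28 and 4.13 CPM in NW against 29.6, 13.7 and 19.5 CPM in NWS, without overlap. Its fitted log2 fold change was 2.67 ± 0.82 depleted and 1.48 ± 0.71 (SE) undepleted, and the depleted value was 1.94 without NWS library 1.

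The depleted libraries had epcam.L at 12.98, 75.8 and 14.4 CPM in the NW caps and at 74.6, 61.7 and 13.8 CPM in the NWS caps. The groups overlapped throughout, NW library 2 held the highest value, and NWS was higher in 1 of 3 pairs of library number. With a log2 fold change of 0.61 ± 0.86 (34.4 ± 35.9 against 50.01 ± 32.01 CPM), the depleted epcam.L values do not bear out the label of a row higher in morphant explants. Leaving out 1 library moved it between 0.24 and 1.81, the highest without NW library 2. In the undepleted libraries epcam.L was at 1.10, 3.68 and 1.81 CPM in NW against 30.6, 6.41 and 6.66 CPM in NWS, with a log2 fold change of 2.92 ± 0.92. The value was 1.73 without NWS library 1, the highest. The levels of NW library 2 and NWS library 2 there rest on 4 and 7 counts. With L and S counts summed, the undepleted change of epcam was 1.89.

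The share of epcam reads assigned to the L row was not stable between preparations of the same library number. In NW library 2 it was 30 of 33 reads (90.9%, exact 95% binomial interval 75.7 to 98.1) depleted and 4 of 13 (30.8%, 9.09 to 61.4) undepleted. NWS library 2 gave 43 of 56 (76.8%, 63.6 to 87.0) and 7 of 22 (31.8%, 13.9 to 54.9). In NWS library 1 the order was the other way, at 29.7% (21.9 to 38.4) depleted and 50.8% (45 to 56.6) undepleted. These intervals cover counting error only, and duplicate reads of 1 molecule would make them too narrow. Added over the 3 libraries of a group, L held 48.8% of epcam reads in NW and 31.8% in NWS depleted, and 24.8% and 43.6% undepleted. By library the undepleted shares were 9.38%, 30.8% and 30.4% in NW against 50.8%, 31.8% and 25.5% in NWS, and 152 of the 186 L reads of undepleted NWS came from library 1. In the depleted libraries the share was lower in NWS in all 3 pairs of library number, and in the undepleted libraries the pairs were mixed.

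**Figure D2:**
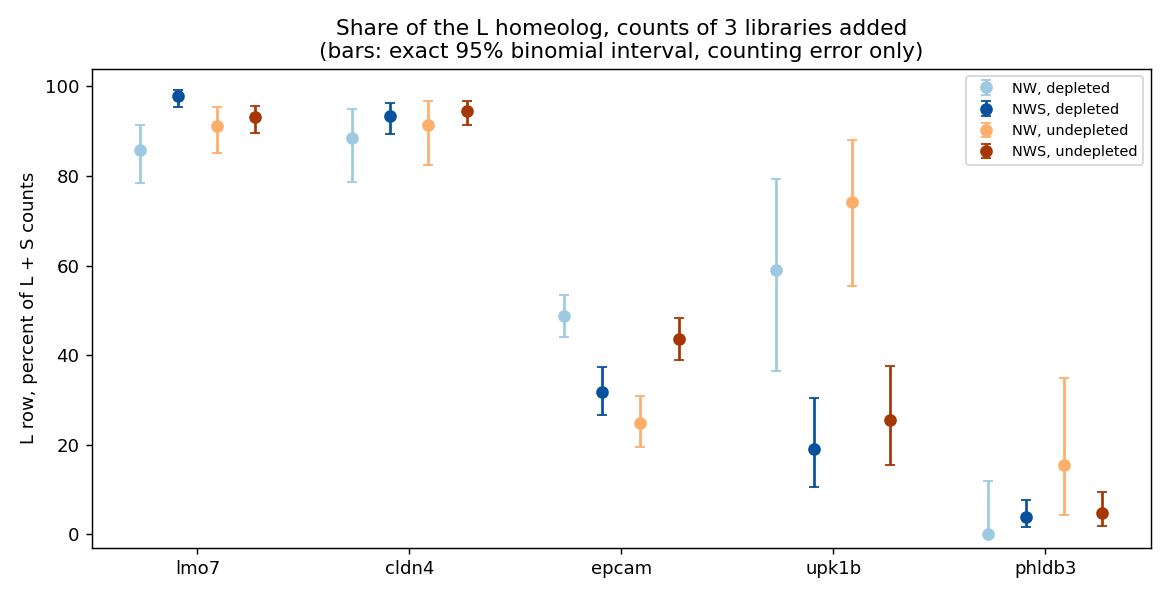
Share of the L row in the L and S counts of each gene, with the counts of the 3 libraries of a group added; points are shares, and bars are exact 95% binomial intervals of counting error. lmo7 and cldn4 were read mostly from L in all 4 groups (85.8% to 97.8%) and phldb3 mostly from S. The epcam and upk1b shares of these added counts moved between groups. By library number, the depleted upk1b share was not lower in NWS in any pair.

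Uroplakin 1b is a tetraspanin of urothelial plaques in mammals, and in Xenopus it is known from the egg membrane. The upk1b.S row was at 0.999, 2.53 and 0.535 CPM in depleted NW libraries and 0, 12.9 and 42.4 CPM in depleted NWS libraries. NWS library 1 had no upk1b.S read, at a floor of 5.89 CPM, so its place against the controls was not detectable at this depth. Undepleted levels of upk1b.S were 0.366, 0 and 0.221 CPM in NW against 3.22, 13.7 and 4.69 CPM in NWS. These rest on 0 to 6 counts per NW library and 15 to 19 counts per NWS library. The undepleted log2 fold change was 4.72 ± 1.25 (SE), 4.0 without NWS library 2, and 2.68 with the L row added.

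Vgll3 is a cofactor of TEAD transcription factors, known in Xenopus from the hindbrain and cranial neural crest more than from epithelia. No vgll3.L read was found in NW libraries 1 and 2 of either preparation, where the floors were 1.498 and 7.58 CPM depleted and 0.548 and 2.76 CPM undepleted. NW library 3 held 87 and 60 reads, which is 7.76 and 2.21 CPM. The NWS libraries were at 9.81, 40.1 and 82.0 CPM depleted and 2.22, 30.2 and 24.4 CPM undepleted, so NWS library 1 lay close to NW library 3 in both preparations. The log2 fold changes were 3.68 ± 1.16 and 4.15 ± 1.11 (SE). Without NWS library 3 the depleted value was 2.90. Without NW library 3 the controls held no read at all, and the fitted values, 8.40 and 9.00, then depend on the prior count.

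The other homeolog rows gave few reads. Of the 4, upk1b.L alone passed the filter, in the depleted libraries, with a log2 fold change of 1.19 ± 1.66 and overlapping groups. For each homeolog row the NWS and NW libraries overlapped in both preparations. The lmo7.S row had 0 to 12 counts per library, cldn4.S 0 to 16 and phldb3.L 0 to 5. lmo7.S stood at 2.18 ± 3.32 CPM in NW against 2.19 ± 2.31 CPM in NWS depleted, against 0.245 ± 0.212 and 1.46 ± 1.29 CPM undepleted. cldn4.S had no read in NW libraries 2 and 3 or in NWS library 2 of either preparation, and NWS library 1 was its highest in both (21.6 and 3.22 CPM). The row upk1b without an ending had 0 to 15 counts per library, with none in the libraries numbered 2. It stood at 0.862 ± 1.42 CPM in NW against 5.73 ± 5.11 CPM in NWS depleted, and at 0.0614 ± 0.106 against 1.83 ± 1.61 CPM undepleted. NWS was higher in 2 of 3 pairs in each preparation, and the groups overlapped. The L share of upk1b was 59.1% (36.4 to 79.3) in NW and 19.1% (10.6 to 30.5) in NWS depleted, and 74.2% (55.4 to 88.1) and 25.4% (15.5 to 37.5) undepleted. These shares hold the S counts that the rows were chosen on, and their intervals cover counting error only. By library, depleted L and S reads were 12 and 2, 0 and 1, and 1 and 6 in NW. In NWS they were 3 and 0, 0 and 9, and 10 and 46, so the depleted L share was not lower in NWS in any pair. Undepleted, they were 18 and 2, 0 and 0, and 5 and 6 in NW. The undepleted NWS libraries had 17 and 16, 0 and 15, and 0 and 19.

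Levels can be set between genes on the deposited FPKM scale, which divides by gene length. In the depleted NWS libraries epcam.S was highest at 54.4 ± 45.1 FPKM, then epcam.L at 27.2 ± 17.5, cldn4.L at 25.02 ± 24.3, vgll3.L at 18.2 ± 15.5, lmo7.L at 18.05 ± 3.78, phldb3.S at 16.9 ± 17.3 and upk1b.S at 7.51 ± 9.09 FPKM (SD, n = 3). Each of these neighbours overlapped in range, so their order does not go beyond the spread. In the undepleted NWS libraries the order began with epcam.S at 12.1 ± 4.96 and cldn4.L at 8.96 ± 7.94 FPKM and ended with upk1b.S at 3.02 ± 2.34 FPKM. The NW libraries also had an epcam row on top, epcam.L at 18.6 ± 19.8 FPKM depleted and epcam.S at 4.34 ± 2.07 FPKM undepleted. The depleted epcam.L mean was carried by NW library 2 (41.4 FPKM), and epcam.S was the higher of the pair in NW libraries 1 and 3. At the lower end of NW stood phldb3.S (0.480 ± 0.297 FPKM depleted) and upk1b.S (0.0800 ± 0.0800 FPKM undepleted).

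By library number, the morphant members did not share a single high library. In the depleted libraries 6 of 7 rows were higher in NWS in each of the pairs 1, 2 and 3, with median differences of 2.43, 3.00 and 4.07 on the log2(CPM + 1) scale. All 7 were higher in each undepleted pair, with medians of 1.4, 3.06 and 2.99. In the depleted libraries 5 of 7 rows were higher in all 3 pairs, against 13.1% of 6585 tested entries. In the undepleted libraries all 7 were, against 11.7% of 6284. Nothing is read from the rows' counts, since the rows were chosen for this direction. NWS library 3 held the highest depleted value of phldb3.S, cldn4.L, upk1b.S and vgll3.L, NWS library 1 that of epcam.S, and NWS library 2 that of lmo7.L. Without both libraries numbered 2, a choice made after the values were seen, the fitted log2 fold changes kept their direction and ran from 1.65 to 5.41 depleted and from 1.70 to 4.88 undepleted.

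Among other genes of the same kinds no single entry passed the test, and about as many were higher as lower. Of 343 entries in lists of tight junction, adherens junction and desmosome, epithelial regulator, keratin, EpCAM partner, uroplakin and tetraspanin, Hippo and cell cortex genes, without the 7 rows and their homeologs, 114 were tested depleted and 116 undepleted. In the depleted libraries 57 were higher and 57 lower in NWS, and the median log2 fold change was 0.00. Undepleted, 50 were higher and 66 lower, and the median was -0.12. Over all entries tested, 48.5% and 47.9% were higher. With edgeR's quasi-likelihood test none of the listed entries passed an adjusted p under 0.05, where the background was 0% of all entries depleted and 0.0159% undepleted. DESeq2 called none of them either, and called 8 entries of the whole table depleted and 9 undepleted. Pairing by library number also gave none, against 0.197% and 0.223% of all entries. At an unadjusted p under 0.05 there were 5 of 114 (4.39%) and 8 of 116 (6.90%), against 3.72% and 4.03% of all entries.

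**Figure D3:**
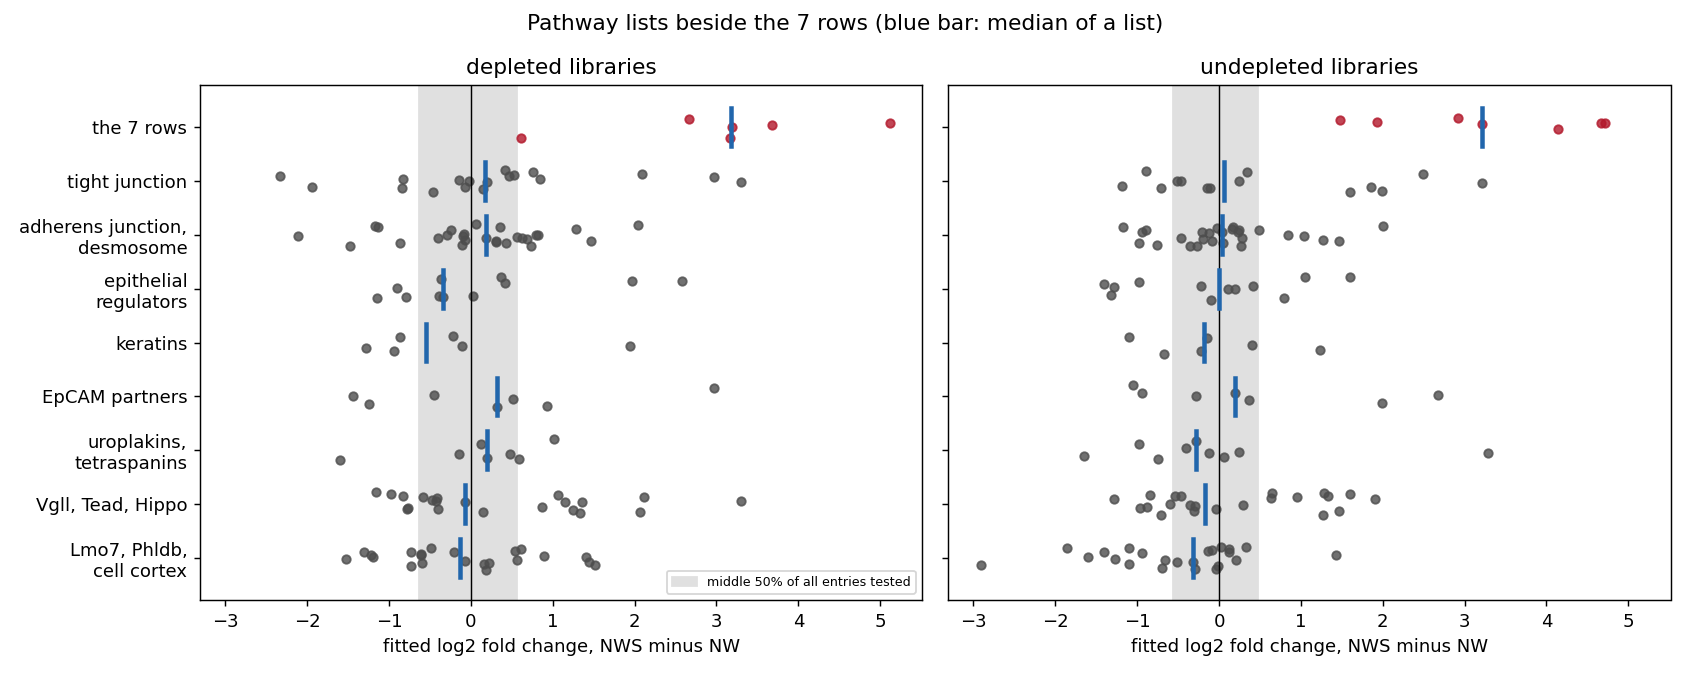
Fitted log2 fold change (NWS minus NW) of every tested entry in each list, depleted left and undepleted right; red points are the 7 rows (6 of them tested depleted), blue bars are list medians, and the grey band holds the middle 50% of all entries tested. The list medians lie between -0.55 and 0.32, while the medians of the 7 rows, which were chosen for higher NWS levels, are above 3.

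The tight junction genes as a whole list, which holds scaffold and polarity genes beside cldn4's relatives, split evenly. The tested claudin and occludin rows, looked at after their values were seen, were mostly higher in NWS. These were cldn7.L and cldn1.S in both preparations, and cldn1.L and ocln.L undepleted, the only preparation where they were tested. For cldn1.S depleted the change was below its standard error. cldnd1.L was lower in both. NW and NWS libraries overlapped for each of these rows. Outside cldn4, 10 were higher and 8 lower of 18 tested depleted (median log2 fold change 0.17) and 7 and 7 of 14 undepleted (0.06). The most abundant were the polarity gene pard3.S, with -0.07 ± 0.67 depleted and -0.47 ± 0.71 undepleted, and the scaffold gene mpdz.L, with 0.84 ± 0.75 and -0.52 ± 0.76. The entries with an unadjusted p under 0.05, picked here after their values were seen, were the angiomotin gene amotl2.S (3.30 ± 1.2 depleted) and the claudin genes cldn7.L (2.98 ± 1.26 depleted) and cldn1.S (3.22 ± 1.19 undepleted), with edgeR adjusted p of 0.973, 0.999 and 0.984. cldn7.L, whose protein binds EpCAM in mammals, was high in NWS libraries 1 and 3 (41.2 and 20.3 CPM) and low in NWS library 2 (1.43 CPM) of the depleted preparation, where NW libraries were at 3.99, 0 and 2.59 CPM. cldn1.S was carried by NWS library 2 (32.03 CPM undepleted), with 0 CPM in NWS library 3. The occludin partner gene marveld2.L was at 2.00, 2.53 and 1.52 CPM in NW against 3.925, 110 and 7.37 CPM in NWS depleted. Undepleted, it was at 0, 0 and 0.184 CPM in NW against 1.21, 4.575 and 7.65 CPM in NWS. The groups did not overlap in either preparation, but some values lay below the floor of 3 counts. With all libraries marveld2.L did not pass the low-count filter. It passed the test in the depleted libraries when NWS library 1 was left out (log2 fold change 4.97, edgeR adjusted p = 0.0247).

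Adherens junction and desmosome genes were near even as well, with 15 higher and 12 lower of 27 depleted (median 0.19) and 14 and 13 of 27 undepleted (0.04). The beta-catenin rows ctnnb1.S and ctnnb1.L, which were the most abundant, gave -0.10 ± 0.60 and 0.06 ± 0.69 depleted and 0.05 ± 0.57 and 0.16 ± 0.69 undepleted. The C-cadherin gene cdh3.L had an unadjusted p under 0.05 in the undepleted libraries, at 2.74, 2.76 and 3.79 CPM in NW against 13.7, 9.15 and 14.8 CPM in NWS (log2 fold change 2.00 ± 0.80, edgeR adjusted p = 1.00). In the depleted libraries cdh3.L was highest in NW library 2 (75.8 CPM), as epcam.L was, and gave 0.63 ± 0.91.

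Keratins, and the list of epithelial regulators taken as a whole, did not follow the 7 rows. Of 6 tested keratin entries 1 was higher and 5 lower depleted (median -0.55), and 2 and 4 undepleted (-0.19). The most abundant keratin rows were high in the libraries numbered 1 of both groups, and krt5.7.L also in NW library 2 (103.5 CPM depleted and 54.3 CPM undepleted). krt12.S was at 357, 58.1 and 4.01 CPM in NW against 169, 5.74 and 1.84 CPM in NWS depleted, with a log2 fold change of -1.29 ± 1.13. krt5.7.L gave -0.94 ± 0.96 depleted and -1.10 ± 0.89 undepleted. The simple epithelial keratin krt8.S went the other way, at 1.95 ± 0.82 depleted (unadjusted p = 0.0258, edgeR adjusted p = 0.999) and 1.23 undepleted. When NWS library 1 was left out, krt12.S passed as lower in both preparations (-5.27 and -5.37, edgeR adjusted p = 0.00232 and 0.00416). These fits kept NW library 1, where krt12.S was high, and dropped the high NWS library of the same number, so the groups were not balanced by number. In the same setting the repressor gene hes1.S, at 27.9 CPM in NWS library 3 and 0 to 1.83 CPM in the other libraries, passed as higher undepleted (4.52, edgeR adjusted p = 0.0391). Epithelial transcription factor and splicing regulator genes gave 5 higher and 6 lower of 11 depleted (median -0.35), and 6 and 6 of 12 undepleted (0.01). This list shares tfap2a, tfap2b and msx1 with the neural crest list described below, and their tested rows were all lower in NWS. Among the rest only tfap2c.L was lower. Picked here after their values were seen, grhl1.S gave 2.58 depleted and 1.05 undepleted, and tp63.L 0.37 and 1.60. Their most abundant rows, tfap2c.S and tfap2c.L, code for an AP-2 factor of ectoderm and gave 0.42 ± 0.73 and -0.39 ± 0.65 depleted and 0.79 ± 0.72 and -0.21 ± 0.65 undepleted.

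Relatives and partners of EpCAM, Uroplakin 1b, Vgll3, Lmo7 and Phldb3 were mixed. EpCAM partner genes gave 4 higher and 3 lower of 7 in each preparation (medians 0.32 and 0.19). Their summed level, without epcam, overlapped between groups depleted. Undepleted, it was 29.2, 31.3 and 34.5 CPM in NW against 40.1, 35.7 and 40.5 CPM in NWS. These did not overlap, but NW library 3 and the shallow NWS library 2 lay close together. A background share of such separations was not computed for summed levels. The most abundant beside cldn7.L was the protease gene adam10.S, with -1.24 ± 1.03 depleted and 0.37 ± 0.97 undepleted. The protease inhibitor gene spint2.L gave 2.68 ± 0.92 undepleted (unadjusted p = 0.00748, edgeR adjusted p = 0.863) but -0.45 ± 1.30 depleted. Uroplakin and tetraspanin genes gave 5 higher and 2 lower depleted (median 0.20) and 3 and 6 undepleted (-0.28). The uroplakin 3a gene upk3a.L, whose protein pairs with Uroplakin 1b, was at 0.366, 0.920 and 0.479 CPM in NW against 5.04, 2.75 and 6.91 CPM in NWS undepleted (log2 fold change 3.29 ± 1.17, unadjusted p = 0.00959, edgeR adjusted p = 0.925). The most abundant of this list were cd63.L, with -0.15 ± 1.03 and -0.28 ± 1.03, and upk3b.L, which was not tested and stood at 75.5 CPM in depleted NWS library 3 and 0 to 11.8 CPM in the other depleted libraries.

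Hippo pathway and Vgll genes gave 10 higher and 11 lower of 21 depleted (median -0.07) and 10 and 12 of 22 undepleted (-0.17). Their summed level, without vgll3, ran from 484 to 616 CPM in NW and from 602 to 1105 CPM in NWS depleted. Undepleted, it ran from 152 to 180 CPM in NW and from 206 to 280 CPM in NWS, without overlap. Here too no background share of such separations was computed. The Hippo scaffold gene sav1.S, the most abundant row of the list, contributed 470 CPM in depleted NWS library 2 and gave log2 fold changes of 1.36 ± 0.72 and 1.28 ± 0.66. vgll4l.S, a Vgll relative, gave 2.11 ± 0.95 and 1.46 ± 0.74, and vgll4l.L 1.24 ± 0.95 and 1.90 ± 0.87 (edgeR adjusted p of at least 0.999 in all). Genes of the cell cortex related to Lmo7 and Phldb3 gave 10 higher and 12 lower of 22 depleted (median -0.14) and 6 and 17 of 23 undepleted (-0.32). The myosin heavy chain genes myh9.L and myh10.S, their most abundant, gave 0.16 ± 0.63 and -0.20 ± 0.71 depleted and 0.03 ± 0.59 and -0.70 ± 0.65 undepleted. The entries with an unadjusted p under 0.05 were lower in NWS: the plakin gene dst.L at -1.52 ± 0.69 and -1.60 ± 0.69, kank2.L at -2.91 ± 1.18 undepleted and pdlim5.S at -1.85 ± 0.83 undepleted (edgeR adjusted p of 0.999 to 1.00). limch1.L, a relative of lmo7 that stood at 48.4 CPM in NW library 1 and at 0.247 to 0.920 CPM in the other undepleted libraries, passed as lower in the undepleted libraries only with no low-count filter (log2 fold change -5.30, edgeR adjusted p = 0.00599).

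Markers of other cell types were read beside the 7 rows. The goblet and small secretory cell list summed to 3.57 to 321 CPM in NW against 11.5 to 128 CPM in NWS depleted, with NW library 1 and NWS library 1 highest, led by otog.L (222 and 70.6 CPM). Ionocyte genes summed to 5.99 to 32.8 CPM in NW against 0 to 12.9 CPM in NWS depleted, and foxi1.L and atp6v1b1.L had no read in any library. Multiciliated cell genes summed to 79.4 to 96.1 CPM in NW against 49.1 to 158 CPM in NWS, with 12 reads of foxj1.L in all. Of the tested multiciliated entries 4 of 5 were higher depleted (median log2 fold change 1.32) and 3 of 4 undepleted (0.62), and none passed the test. Mesoderm genes summed to 16.7 to 121 CPM in NW against 29.4 to 74.6 CPM in NWS, and endoderm genes to 2.00 to 9.45 and 0 to 27.5 CPM. The ranges of these sums overlap between groups in each list. The neural crest list, which these explants should express, had 27 of 34 tested entries lower depleted (median -0.85) and 27 of 35 undepleted (-0.89), and the neural plate list 7 of 11 and 7 of 12 higher (0.57 and 0.53). None of the crest entries passed unpaired. Pairing by number gave 3 of 34 lower depleted and 2 of 35 undepleted, against 0.197% and 0.223% of all entries called in either direction. The part of these markers in the levels of the 7 rows was not tested.

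The difference between preparations was not itself used to choose the rows. The depleted and undepleted libraries were compared within NW and within NWS. High NWS and low NW levels in both preparations did take part in the choice, so likeness of the preparations in either group is a description. Of the 7 rows 4 passed the filter in NW and all 7 in NWS. Those that passed only in NWS, where they are high, were phldb3.S, upk1b.S and vgll3.L, and nothing is read from the absence of calls among them. With edgeR's quasi-likelihood test none passed an adjusted p under 0.05 in either, with or without pairing by library number, where 0.0376% (unpaired) and 0.103% (paired) of 10633 entries were called in NW and 0% and 0.167% of 5979 entries in NWS. Within NWS the log2 fold changes, depleted minus undepleted, ran from -0.53 ± 0.85 (vgll3.L) to 0.45 ± 0.49 (lmo7.L), with no unadjusted p under 0.05, and DESeq2 called none of them.

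The row that stood off most was epcam.L in NW, at 9.23, 48.6 and 10.3 CPM depleted and 2.77, 8.34 and 4.23 CPM undepleted on the common scale of these 6 libraries. It was higher depleted in all 3 pairs, with a log2 fold change of 2.21 ± 1.07 (unadjusted p = 0.0420, edgeR adjusted p = 1.00) and 1.77 ± 0.75 with pairing (edgeR adjusted p = 1.00). Without depleted library 2 the value was 1.10, and with L and S counts summed the difference of epcam in NW was 0.49. epcam.S in NW gave -0.80 ± 0.96, with the depleted level higher in 1 of 3 pairs. In NW, lmo7.L gave -0.80 ± 1.04 and cldn4.L -0.26 ± 1.26. Among NWS libraries of 1 number the preparations were nearest for cldn4.L, where they differed by -0.61, -0.03 and -0.14 on the log2(CPM + 1) scale, and farthest for upk1b.S, at -2.49, -1.82 and 1.33.

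**Figure D4:**
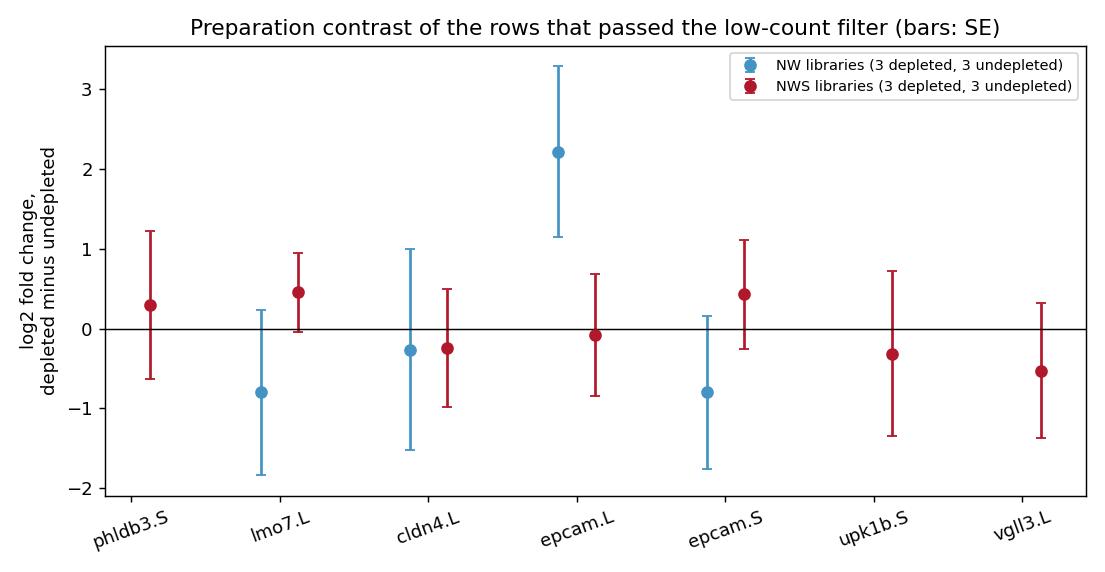
Fitted log2 fold change of each row between depleted and undepleted libraries, within NW (blue, the 4 rows that passed the low-count filter) and within NWS (red, 7 rows); bars are standard errors. All NWS points lie between -0.53 and 0.45, and epcam.L in NW lies at 2.21.

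The entries likest in pattern to the 7 rows were found among 5320 tested entries, by Pearson correlation with the rows' mean standardised profile of log2(CPM + 1), centred within each preparation, over 12 libraries. Libraries of 1 number deviated together, and the 12 share the difference between groups on which the rows were chosen, so the coefficients are descriptions. They were hsph1.S (0.93), which codes for an Hsp110 chaperone, mn1.S (0.92) and bcor.S (0.92), which code for a transcriptional coactivator and a corepressor, the unnamed LOC108719216 (0.91), ahsa1.S (0.90), which codes for an activator of Hsp90, and kremen2.L (0.89), which codes for a receptor of the Wnt inhibitor Dickkopf. mn1.S was at 32.5, 32.8 and 38.4 CPM in depleted NW libraries and 167, 103.2 and 135 CPM in depleted NWS libraries. kremen2.L was at 6.49, 2.53 and 2.497 CPM in depleted NW libraries and 39.3, 31.5 and 56.2 CPM in depleted NWS libraries. Against the mean profile of the other 6 rows, cldn4.L, lmo7.L and phldb3.S stood at coefficients of 0.84, 0.83 and 0.82, vgll3.L at 0.77, upk1b.S at 0.67, epcam.S at 0.62 and epcam.L at 0.26, the lowest of the 7.

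**Figure D5:**
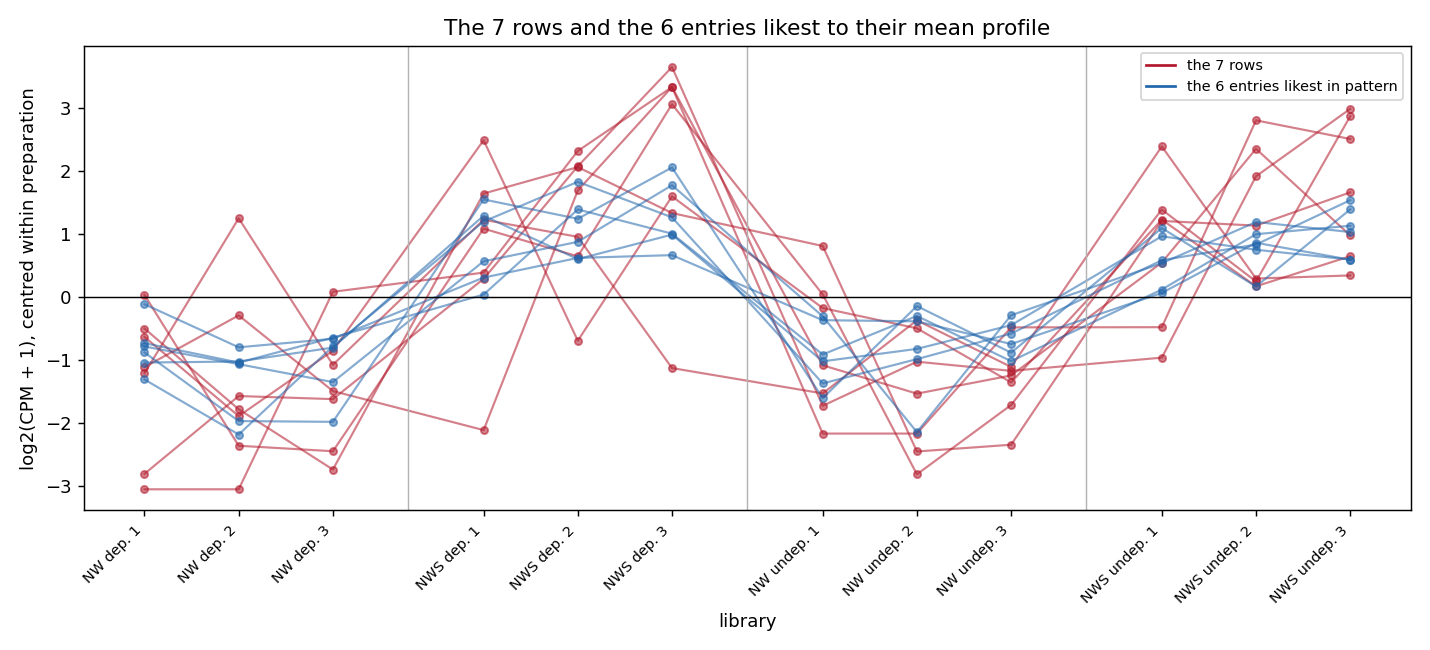
Level of the 7 rows (red) and of the 6 entries likest in pattern (blue) in each of the 12 libraries, as log2(CPM + 1) centred within the preparation; lines tie the points of 1 entry and stand for no order of libraries. Both sets lie mostly below 0 in NW and above 0 in NWS, and the red lines spread more within a group.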

How the data were processed

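Total RNA was sequenced from the explants in 30 runs, which are lanes of 12 libraries. Groups came from the sample descriptions and library numbers from the run titles, since the source names of the undepleted NWS lanes count fewer replicates. The labels speak of biological replicates, and p-values rest on how these libraries vary. The authors' tools, per the submitters' processing notes, included STAR, bcl2fastq, DESeq2 and featureCounts, with no versions listed. The sources used here do not give the genome build, annotation, strand setting or handling of reads with several matches. Reads of homeologs may be split between copies. The authors deposited raw counts per entry and library with lanes added up. They also deposited FPKM values, whose scale differed by at most 0.000501% from median-of-ratios size factors and by up to 609% from total counts.

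The count test was that of edgeR 4.0.16 under R 4.3.3 (normalisation by TMM, filterByExpr at a minimum count of 10, quasi-likelihood fit with the group as the only term, Benjamini-Hochberg adjustment over all tested entries, threshold 0.05). DESeq2 1.42.0 was an alternative. Fold changes are fitted values, CPM uses the TMM library size, and a pseudocount of 1 was added where log2(CPM + 1) is named. The SE of a fold change was worked back from the quasi-likelihood test, as its absolute value divided by the square root of the F statistic. For the 7 rows in NWS against NW it therefore rests on the comparison they were chosen on, and no test is read from it. The fits were also run on simulated counts with set dispersions. These need not match the spread of these libraries, so no power is read from them. Entries were named from the reference gene table (Xenopus_laevis_v10.1, names only); 25709 entries are symbols of it and 3698 were named through their gene ID, among them tfap2c.L, vgll4l.L and vgll4l.S. No sequences were used. Same-numbered NW and NWS libraries deviated together from their group means (correlations 0.131 to 0.248 over both preparations), as did depleted and undepleted libraries (0.293 to 0.525). Each was above 0.1, so the numbers were taken as pairs. Library names are the same in both preparations, and NW and NWS names share their numbers, but the labels do not state a pairing. Members and lists were chosen with earlier results of these data known. The text names the 7 rows with their homeologs, the 2 listed entries of highest FPKM per pathway list, those that passed, the 6 likest in pattern, and others where it says so. Figures used Python 3.11.15 and matplotlib 3.10.9.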

Additional observations from a re-analysis of the deposited data

How the results depend on the processing

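All 202 alternative values of the rows' log2 fold changes (NWS minus NW) stayed above 0, and 188 moved by less than the spread between libraries. The rows were chosen for this direction, so the sign is a description. Some fits are counted more than once among the 202. The summed preparations stand under both preparations, and the summed L and S rows under both epcam rows. Other fits are missing, because the row failed the low-count filter. This was so for upk1b.S depleted in the main setting, so none of its values are counted. At a minimum count of 20 it was so for phldb3.S in both preparations, vgll3.L depleted and upk1b.S undepleted. Without dominant entries it was so for vgll3.L depleted and phldb3.S undepleted. The number of rows with separated groups was 4 or 5 in alternatives on depleted libraries alone and 7 on undepleted libraries alone. With both preparations summed it was 6. Separation is easier with a library left out, and the share of all entries separated in these alternatives was not computed. The median log2 fold change over all listed entries ran from -0.247 to 0.167 depleted and from -0.278 to 0.134 undepleted. Counts of calls over all entries changed more. For NWS against NW they were 0 depleted and 1 undepleted, 13 and 14 with the replicate block, 20 and 29 without a low-count filter, 8 and 9 with DESeq2, 0 and 0 with both preparations summed and 26 with that sum and the block. Without both libraries numbered 2 the depleted count was 1. Leaving out 1 library gave 0 to 24 depleted and 1 to 26 undepleted, the most without NWS library 1 (24 and 25) and NW library 1 (7 and 26). Calls among listed entries were 0 to 2 with a library left out, and 1 undepleted without a filter. For depleted against undepleted, NW had 4 calls, 9 without a filter, 1 at a minimum count of 20, 11 with the replicate block, 1 without dominant entries, 0 without both libraries numbered 2 and 1 to 9 with a library left out. NWS had 0, then 6 without a filter, 2 with DESeq2 and 10 with the replicate block. Of the rows' preparation differences, 18 of 152 alternative values turned in sign, none with a call. With L and S summed, epcam gave 0.49 in NW (epcam.S: -0.80) and 0.27 in NWS (epcam.L: -0.08). Without both libraries numbered 2, upk1b.S gave 0.66 and vgll3.L 0.052 in NWS. With a library left out, cldn4.L ran from -1.99 to 1.64 and lmo7.L from -1.86 to 2.08 in NW. In NWS cldn4.L ran from -1.42 to 0.67, epcam.L from -0.56 to 1.12, epcam.S from -0.39 to 0.92, phldb3.S from -0.93 to 1.38 and upk1b.S from -1.86 to 0.42. The cause of these changes was not tested. Depth limits the rows in the libraries numbered 2 and in depleted NWS library 1, where 1 read is a large part of many values.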
